A study of Homo sapiens with 6 samples.

Results

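Deep intronic clusters are PAR-CLIP binding sites of hnRNP A1 that lie in an intron and more than 50 kb from the nearest annotated transcription start site (TSS). They were taken from the deposited cluster lists by 2 fields, an annotation that begins with intron and an absolute distance to the TSS above 50000 nt. The rule selected 511 clusters out of 9637 intronic clusters and 16269 clusters of any kind. The 6 libraries came from HEK293T cells, a human embryonic kidney line, which were transiently transfected with a plasmid for myc-tagged hnRNP A1, fed 4-thiouridine, irradiated with ultraviolet light and used for an anti-myc immunoprecipitation. The 3 groups, each with 2 libraries, were A1dm, the R75D/R88D double mutant from the band of the monomer, A1-HMW, the wild-type protein from a slower band that the labels call dimeric and the study calls possibly dimeric, and A1, the wild-type protein from the monomer band. The tagged protein was overexpressed, and the cells still made their own hnRNP A1. The lists hold no reads of the transfected gene, so the protein named in each label could not be checked here.

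HnRNP A1 is an abundant nuclear protein that binds RNA through a pair of RNA recognition motifs, shuttles to the cytoplasm and is best known as a regulator of alternative splicing. Introns of long genes are transcribed far from any exon or promoter, are removed and degraded in the nucleus, and hold most of the sequence that nascent RNA presents to such a protein. In PAR-CLIP, the incorporated 4-thiouridine cross-links to the bound protein, so each cluster marks a short stretch of RNA with at least 1 cross-linked uridine. A T was present in 511 of the 511 deep clusters.

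For A1dm, replicate 1 held 5 deep clusters and replicate 2 held 12. For A1-HMW the numbers were 14 in replicate 1 and 25 in replicate 2, and for A1 they were 188 in replicate 1 and 267 in replicate 2. Clusters of any kind numbered 232 and 596 with A1dm, 671 and 865 with A1-HMW, and 5805 and 8100 with A1. The score is 0 in every line of the lists, so the lists do not give the number of reads behind a cluster, which is not used here, and a site missing from the short A1dm and A1-HMW lists may have lacked reads. These small numbers set the precision of all that follows, and the intervals given below cover counting error only.

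Sites found in 3 or 4 libraries are shown first, because they were called in the most libraries. The 511 deep clusters merged into 383 regions on the same strand. Of these, 277 were found in 1 library, 87 in 2, 16 in 3 and 3 in 4 libraries, and 0 in 5 or in 6. The sequences below are the RNA strand of the reference genome (GRCh37, the build hg19 of the lists), 5′ to 3′, and the longest uninterrupted stretch of A and G is in capitals.
ASH1L, chr1:155472530-155472557, minus strand: AAGGAGAAAGGAAGGAGGAtgagggaat
GPC5, chr13:92314363-92314385, plus strand: AGAGGGAAGAAGAGAActgaggc
MECOM, chr3:169253375-169253404, minus strand: atGAAGGAGGGGAGAGAGAAAAGGGGAtgc
HDAC8, chrX:71735316-71735342, minus strand: gttGAGGGAGGAAGGAAGGGAAGGGGc
AUTS2, chr7:69971186-69971212, plus strand: agattGAGAGGAGAGGAGAGAAAGAGc
DIAPH3, chr13:60442849-60442873, minus strand: tGAGGAGAGGGAAGAAGGAAGGAAt

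Regions in ASH1L, which encodes a histone methyltransferase, and in GPC5, which encodes a cell-surface heparan sulfate proteoglycan, were each found in replicate 2 of A1dm, replicate 2 of A1-HMW and both A1 libraries. NCAM1, which encodes a neural cell adhesion molecule, held a region found in both A1-HMW libraries and both A1 libraries, and in neither A1dm library. The region printed for MECOM, the locus of the zinc-finger transcription factor EVI1, was found in replicate 2 of each of the 3 groups. The HDAC8 region, in the gene of a class I histone deacetylase, was found in both A1-HMW libraries and in replicate 1 of A1. The regions printed for AUTS2 and for DIAPH3, which encodes a formin that nucleates actin, were found in replicate 1 of A1dm and both A1 libraries. STX8, which encodes a syntaxin of endosomal membrane fusion, held a region found in replicate 2 of A1dm and both A1 libraries, and another found in replicate 2 of A1-HMW and both A1 libraries. The 6 sequences printed are nearly pure A and G, with purine stretches of 16 to 25 nt, and each occurs at 1 place in the genome.

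Some recurrent deep sites were of another kind. The following 3 regions are printed because they were found in A1dm together with other libraries and hold no long purine stretch, with capitals again marking the longest one.
FGF13, chrX:138218039-138218058, minus strand: acatgatGAAGGAcgtgata
LRRC4C, chr11:40578056-40578076, plus strand: tcgtgtgtGAAAGtaggtctt
SLC14A2, chr18:42892650-42892672, plus strand: ctAAttgctcgtctggttagtgc

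The FGF13 site, in intron 1 of 2 of the annotated transcript of an intracellular fibroblast growth factor homologue, was the only deep region found in both A1dm libraries. It was also found in replicate 2 of A1-HMW and in neither A1 library, and its longest purine stretch is 6 nt. The LRRC4C site was found in replicate 1 of A1dm and both A1 libraries, on the strand opposite to LRRC4C, which encodes a netrin-G ligand. No annotated gene lies on the strand of that cluster. The SLC14A2 site, in a urea transporter gene, was found in replicate 2 of A1dm and replicate 1 of A1. Purines made up 70%, 52.4% and 39.1% of these 3 sequences, in the order printed. Each sequence occurs once in the genome.

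The surroundings of the ASH1L and GPC5 regions, each found in 4 libraries, show how local the purine stretch was. In the windows below the cluster is in capitals and 60 nt of flanking sequence on either side is in lower case.
ASH1L, chr1:155472470-155472617, minus strand: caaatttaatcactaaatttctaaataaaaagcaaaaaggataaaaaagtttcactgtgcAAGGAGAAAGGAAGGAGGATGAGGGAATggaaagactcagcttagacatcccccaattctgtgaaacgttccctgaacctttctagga
GPC5, chr13:92314303-92314445, plus strand: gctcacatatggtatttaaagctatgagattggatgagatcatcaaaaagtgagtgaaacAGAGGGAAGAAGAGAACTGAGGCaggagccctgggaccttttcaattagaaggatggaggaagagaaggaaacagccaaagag

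Purines made up 92.9% of the ASH1L cluster and 53.3% of its flanks. For the GPC5 site the shares were 87.0% in the cluster and 66.7% in the flanks. For the NCAM1 region, whose window is not printed, they were 88.5% and 64.2%. The downstream flank of the GPC5 site holds a second cluster, at chr13:92314410-92314435, that was called in both A1 libraries and in no other.

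Deep clusters were a small and similar share of the intronic clusters in all 6 libraries. The share was 4.59% (95% Wilson interval 1.98 to 10.3) and 4.65% (2.68 to 7.95) for A1dm, 3.56% (2.13 to 5.89) and 4.93% (3.36 to 7.18) for A1-HMW, and 5.35% (4.65 to 6.14) and 5.50% (4.89 to 6.18) for wild-type A1. Both A1 libraries lay above the other 4, and the interval of each of those 4 included both A1 values.

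**Figure D1:**
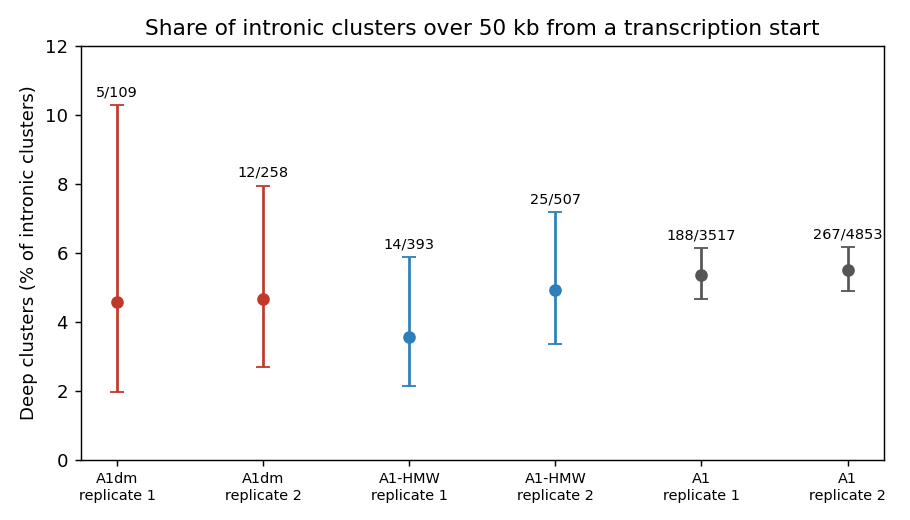
Share of intronic clusters that lie over 50 kb from a TSS (vertical axis, percent) in each library (horizontal axis), with 95% Wilson intervals as bars and the counts above them. The A1dm and A1-HMW libraries sit between 3.56% and 4.93%, and the A1 libraries at 5.35% and 5.50%.

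The group means were 4.62% ± 0.0453 for A1dm, 4.25% ± 0.968 for A1-HMW and 5.42% ± 0.111 for A1 (SD, n = 2 each). A1dm minus A1 was -0.80 percentage points and A1-HMW minus A1 was -1.18 points, each with an exact two-sided permutation p of 0.333, the smallest that 2 libraries against 2 allow. A1dm minus A1-HMW was 0.37 points (exact permutation p = 1). On the pooled counts, Newcombe's 95% interval ran from -2.60 to 1.90 points for A1dm minus A1, from -2.36 to 0.50 for A1-HMW minus A1, and from -2.01 to 3.20 for A1dm minus A1-HMW. These intervals treat clusters as the unit and do not measure the spread between libraries. With 2 libraries per group and these numbers of clusters, a difference in the deep share between the groups was thus not detectable.

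The deep share is a share of clusters, not of binding per length of RNA. The annotated introns on GRCh37 covered 1617 Mb, of which 206 Mb, or 12.7%, lay over 50 kb from every transcript start of the newer annotation used here. With these starts, 407 of the 511 clusters were still deep. Cluster density was highest 1 to 5 kb from a start and lower in each further band up to 200 kb. Beyond 200 kb, where the introns covered 6.17 Mb, no A1dm cluster was listed, each A1-HMW library held 1, and the A1 libraries held 5 and 7. The density there was 0.162 per Mb in each A1-HMW library, against 0.0188 per Mb between 100 and 200 kb. In A1 replicate 1 it was 0.811 beyond 200 kb, against 0.432 between 100 and 200 kb, and in A1 replicate 2 it was 1.13 against 0.807. In the A1dm libraries the density was 0.00973 and 0.0487 clusters per Mb beyond 50 kb, against 0.0596 and 0.146 per Mb between 5 and 50 kb. In the A1-HMW libraries the values were 0.0341 and 0.0876 per Mb beyond 50 kb, against 0.215 and 0.285 per Mb between 5 and 50 kb. In the A1 libraries they were 0.759 and 1.13 per Mb beyond 50 kb, against 2.04 and 2.85 per Mb between 5 and 50 kb. The deep density was thus 15.9% to 39.7% of the density between 5 and 50 kb. It was the lower of the pair in 6 of 6 libraries (exact sign-flip permutation p = 0.0313, the smallest that 6 libraries allow). The density comparison was planned as a description. It uses the kind of distance that defined the class, its p was not adjusted, and the libraries share some sites. The lists do not tell how strongly each gene was transcribed, so less RNA from deep introns and less binding to it cannot be told apart.

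**Figure D2:**
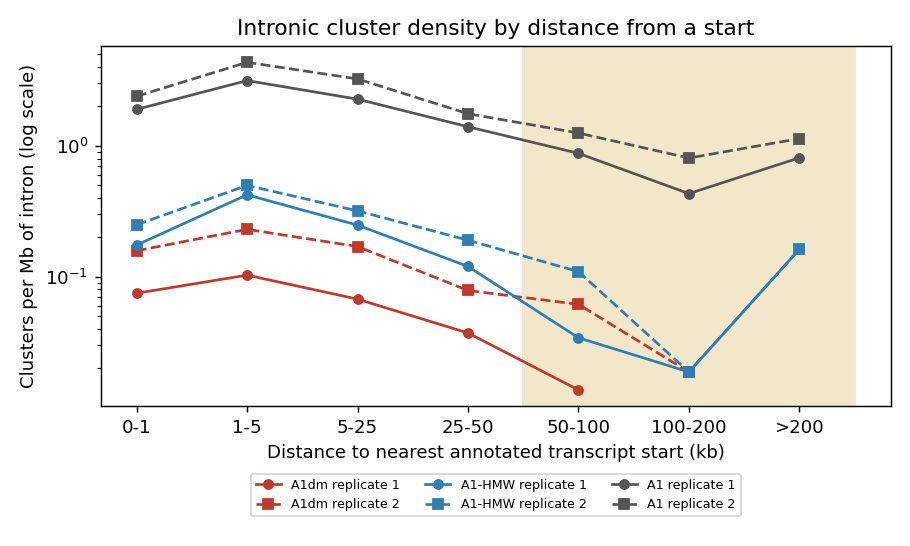
Intronic clusters per Mb of intronic sequence (vertical axis, log scale) in 7 bands of distance to the nearest annotated transcript start (horizontal axis, kb), 1 line per library, with the bands beyond 50 kb shaded and empty bands not drawn. All 6 lines peak at 1 to 5 kb and are lower at 50 to 100 kb, where A1 replicates 1 and 2 stand at 0.876 and 1.25 clusters per Mb.

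Within the deep class the counts thinned further with distance. The median distance to the nearest TSS was 66.7 kb for A1dm, 67.3 kb for A1-HMW and 72.4 kb for A1. In all, 113 deep clusters lay beyond 100 kb and 18 beyond 200 kb, and the farthest was 248328 nt from a TSS. The members nearest to the threshold were clusters at 50078 nt in LINC02150 and 50081 nt in DMXL2. Just outside it were clusters at 49998 nt in FGF12 and 49859 nt in ABL1. All 4 came from A1 libraries, with purine stretches of 21 and 19 nt inside the threshold and 15 and 25 nt outside it.

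The nearest TSS was often not that of the gene that held the cluster. Its gene symbol differed from that of the host gene for 309 of 511 deep clusters. A host gene was found for 452 clusters through the transcript named in their annotation and for 59 by position, because their transcript has no entry in the newer annotation. Measured from the start of the host gene, the median position was 128 kb for A1dm, 128 kb for A1-HMW and 171 kb for A1. The farthest positions were 964 kb for A1dm, 1241 kb for A1-HMW and 1240 kb for A1. All 511 clusters lay over 50 kb from the start of their own host. The rule on the nearest TSS largely fixes this outcome.

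The hosts were long genes. There were 233 of them, 203 protein-coding and 30 for long noncoding RNAs, with a median length of 394 kb, against 104 kb for the 9768 annotated genes over 50 kb. The hosts numbered 16 for A1dm, 33 for A1-HMW and 220 for A1. Of the genes over 50 kb, 0.164% held a deep A1dm cluster, 0.338% a deep A1-HMW cluster and 2.25% a deep A1 cluster. For A1 this share was 0.173% of genes between 50 and 100 kb, 0.998% between 100 and 200 kb, 6.29% between 200 and 500 kb, 15.8% between 500 and 1000 kb and 22.1% above 1000 kb. A longer gene has more sequence that can meet the rule, so this order describes the class and was not tested.

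Clusters were spread over many genes, and a few genes held several. Each host held 1 deep cluster in both A1dm libraries and in replicate 1 of A1-HMW, and in replicate 2 of A1-HMW 21 genes held 1 and 2 genes held 2. In replicate 1 of A1, 102 of the 138 hosts held 1, 27 held 2 and 9 held 3 or more. In replicate 2 of A1, 139 of the 184 hosts held 1, 26 held 2 and 19 held 3 or more. Neighbouring deep clusters of 1 gene and strand lay far apart, with a median gap of 35.5 kb in replicate 1 of A1 (49 pairs) and 50.3 kb in replicate 2 (82 pairs). Gaps of 500 nt or less were seen for 1 and 3 of these pairs.

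**Figure D3:**
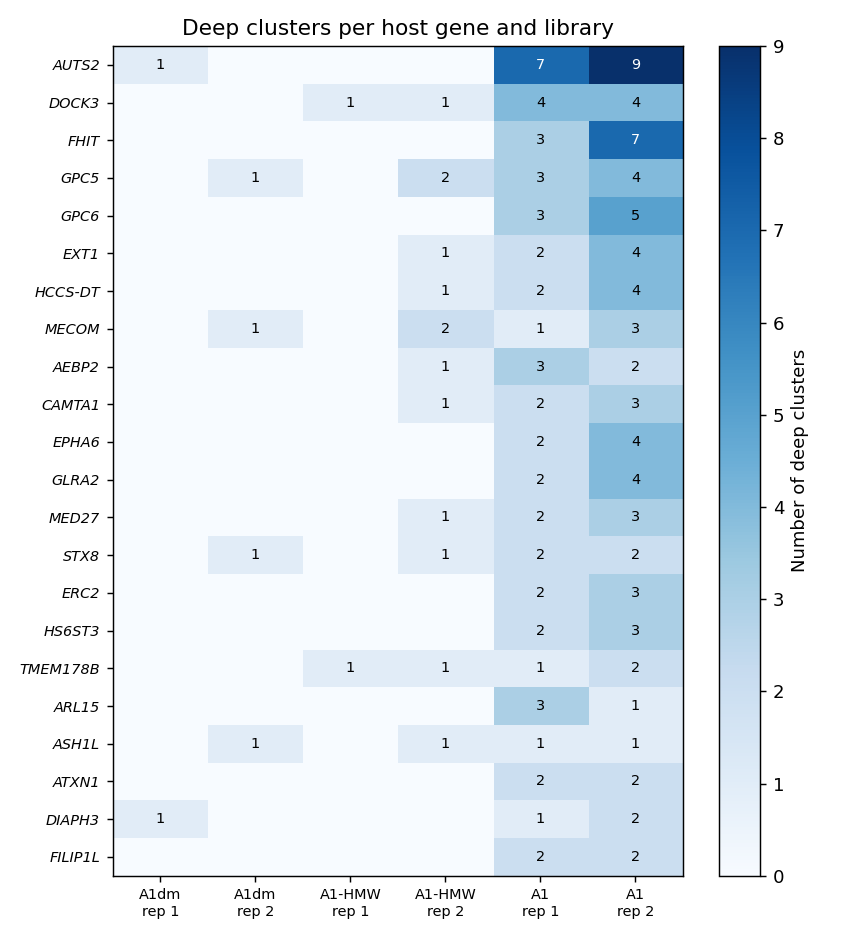
Number of deep clusters (shade and digits) in the 22 host genes with the most of them (rows) in each of the 6 libraries (columns), with empty cells at 0. AUTS2 holds 1 cluster in A1dm replicate 1 and 7 and 9 in the A1 libraries, and no row has clusters in more than 4 libraries.

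AUTS2, a neurodevelopmental gene whose product joins a variant Polycomb complex, held the most deep clusters. It had 1 and 0 for A1dm, 0 and 0 for A1-HMW, and 7 and 9 for wild-type A1. These were 11 regions spread over introns 2 to 5 of its 1195 kb, between 287 and 908 kb from the gene start. The region at 908 kb, printed above, was the one that A1dm shared. Of the others, 4 were found in both A1 libraries, and their sequences show that each site has its own arrangement of purines around a shared composition.
AUTS2, chr7:69350022-69350044, plus strand: gaagattGAGAGAGAGGGAAGGc
AUTS2, chr7:69372778-69372804, plus strand: AAGAGAAGAAGGAAGAGAGAGGGtgga
AUTS2, chr7:69454505-69454531, plus strand: gatGAGAGGGAAGGAGAGAGGAGGAAt
AUTS2, chr7:69619283-69619309, plus strand: aaaaatGAGAGAGGAAAAGGGAAAAAt

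The next genes had 8 or more deep clusters in all. FHIT, which encodes a diadenosine triphosphate hydrolase and spans a common fragile site, held 0 in each A1dm and A1-HMW library and 3 and 7 in the A1 libraries, in 8 regions from 71.0 to 1105 kb along its 1504 kb. DOCK3, which encodes an activator of the GTPase Rac, held 0 and 0 in A1dm, 1 and 1 in A1-HMW, and 4 and 4 in A1. The DOCK3 clusters of the A1-HMW libraries lay at different sites, 483 kb and 290 kb from the gene start, and each overlapped a cluster of A1 replicate 2. GPC5 held 0 and 1 in A1dm, 0 and 2 in A1-HMW, and 3 and 4 in A1. One of the GPC5 clusters of A1-HMW, 1241 kb into the gene, lay on the opposite strand. GPC6, a paralogue that neighbours GPC5 on chromosome 13, held 0 in each A1dm and A1-HMW library and 3 and 5 in the A1 libraries.

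**Figure D4:**
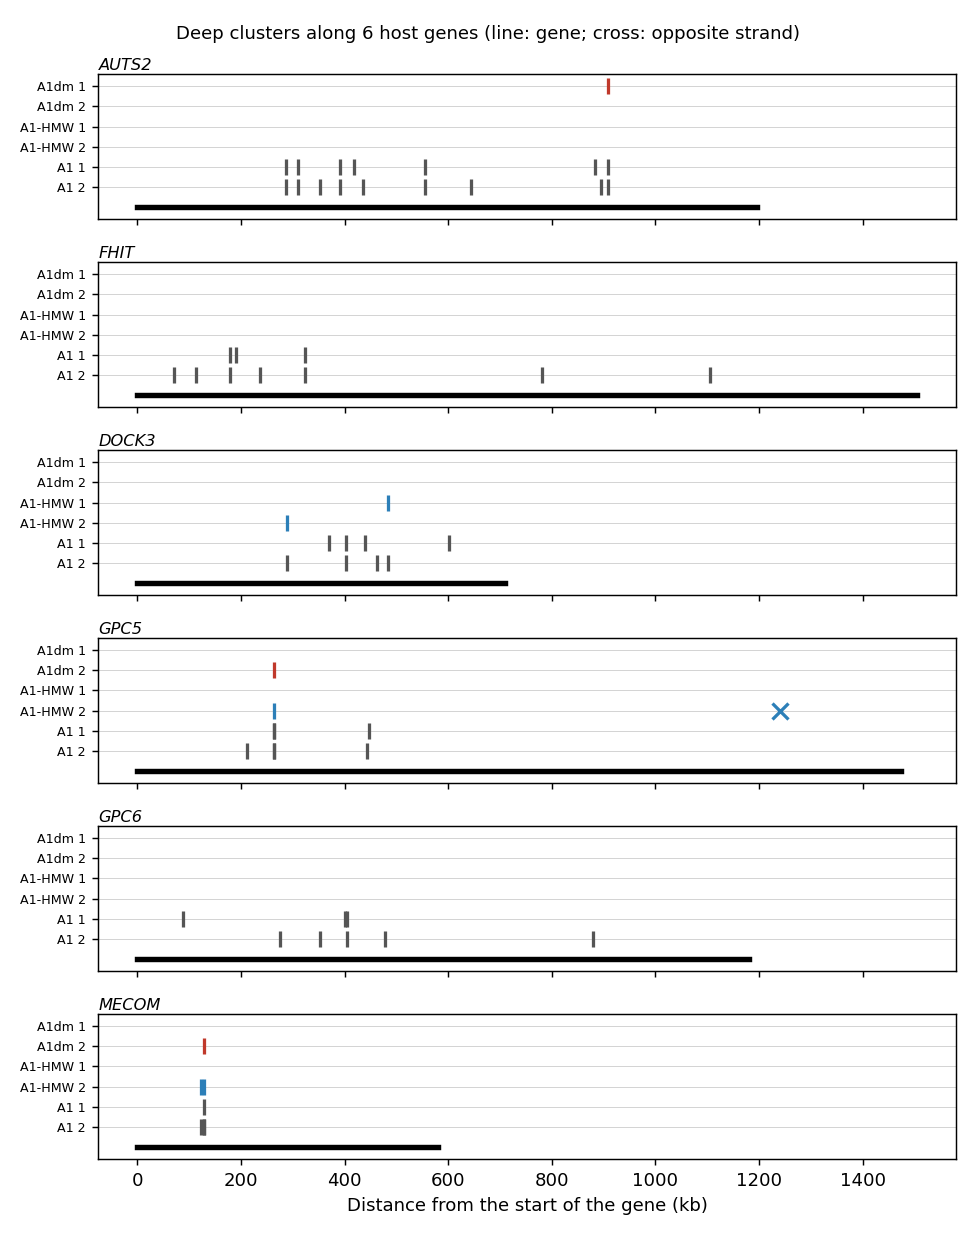
Positions of deep clusters along 6 host genes (horizontal axis, kb from the start of the gene), 1 line of ticks per library, with the gene drawn as a black bar and a cross for a cluster on the opposite strand. The AUTS2 ticks run from 287 to 908 kb, and the MECOM ticks of 4 libraries lie together between 123 and 129 kb.

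MECOM showed the closest grouping among these genes. It held 0 and 1 deep clusters in A1dm, 0 and 2 in A1-HMW, and 1 and 3 in A1, all in intron 1 and in 3 regions between 123 and 129 kb from the gene start. EXT1, a heparan sulfate polymerase gene, held 0 and 0 in A1dm, 0 and 1 in A1-HMW, and 2 and 4 in A1, also all in intron 1. HCCS-DT, a noncoding RNA transcribed divergently from HCCS, held 0 and 0 in A1dm, 0 and 1 in A1-HMW, and 2 and 4 in A1. AEBP2, which encodes a cofactor of Polycomb repressive complex 2, held 0 and 0 in A1dm, 0 and 1 in A1-HMW, and 3 and 2 in A1. EPHA6, an ephrin receptor gene, and GLRA2, which encodes a glycine receptor subunit, each held 0 with A1dm or A1-HMW, against 2 and 4 with A1. TMEM178B held 0 and 0 in A1dm, 1 and 1 in A1-HMW, and 1 and 2 in A1.

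No gene held a deep cluster in 5 or more libraries, and 7 genes did so in 4, namely ASH1L, DOCK3, GPC5, MECOM, NCAM1, STX8 and TMEM178B. Of the 16 A1dm hosts, 10 were also A1 hosts, and of the 33 A1-HMW hosts, 24 were. A1dm and A1-HMW shared 6 hosts. In both libraries of a group, 1 host recurred for A1dm (FGF13), 4 for A1-HMW (DOCK3, HDAC8, NCAM1 and TMEM178B) and 102 of 220 for A1. Among the A1dm hosts, CACNB4, a calcium channel subunit gene, held 1 cluster in A1dm replicate 2 and, at another site, 1 in each A1 library. SLIT2, which encodes an axon guidance ligand, held an A1dm site that overlapped a site of A1 replicate 1.

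Deep clusters lay on the strand of their annotated host in 459 of 511 cases. The annotation ignores strand, and of the 52 on the opposite strand, 15 lay on the strand of another annotated gene and 37 did not. The 6 GLRA2 clusters were all on the opposite strand, and 4 of them lay within FANCB, a Fanconi anaemia gene. The 4 FILIP1L clusters were on the strand of CMSS1. The share on the host strand was 80% and 100% for A1dm, 85.7% and 88% in A1-HMW, and 91.0% and 89.1% in A1. Among other intronic clusters it was 90.4% and 85.4% in A1dm, 87.9% and 85.7% in A1-HMW, and 86.2% and 83.5% in A1. The deep share was higher in 4 libraries and lower in 2, with a mean difference of 2.47 points ± 8.36 (SD, n = 6, exact sign-flip permutation p = 0.5).

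Fewer deep clusters than other intronic clusters lay in the first intron. The shares in intron 1 of the annotated transcript were 20% for deep and 40.4% for other intronic clusters in A1dm replicate 1, and 25% and 43.5% in A1dm replicate 2. In A1-HMW they were 21.4% for deep and 37.5% for other intronic clusters in replicate 1, and 28% and 38.4% in replicate 2. In A1 they were 25% for deep and 37.7% for other intronic clusters in replicate 1, and 25.1% and 37.2% in replicate 2. The deep share was the lower one in 6 of 6 libraries, by 15.0 points ± 3.93 on average (SD, n = 6). The exact sign-flip permutation p was 0.0313, or 0.125 after Benjamini-Hochberg adjustment over the 8 features compared. Newcombe's interval of the difference excluded 0 in replicate 1 of A1 (-18.6 to -5.85 points) and replicate 2 of A1 (-17.1 to -6.38), and included 0 in the other 4 libraries. The other intronic clusters include those close to a TSS. Among clusters 5 to 50 kb from a TSS alone, the shares in intron 1 were 24.1% and 40.7% in A1dm. They were 33.0% and 29.7% in A1-HMW, and 32.7% and 32.8% in A1. The rule on distance from a TSS bears on which introns can qualify, so no more than the difference itself is read from the comparison. The median intron number was 5 and 2 in the A1dm libraries and 3 in each of the other 4. Intron 36 was the highest in both A1-HMW and A1, in POLA1, the gene of the DNA polymerase alpha catalytic subunit.

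Deep clusters lay far from exons, as the rule favours long introns. The median distance from a deep cluster to the nearest exon of its host was 30.4 kb for A1dm, 20.2 kb for A1-HMW and 22.6 kb for A1. A deep cluster within 300 nt of an exon was found 7 times, 0 times in A1dm, 1 time in A1-HMW (ARFGEF3, 263 nt) and 6 times in A1, all in replicate 2. The closest was in ATP9A, a phospholipid flippase gene, with its centre 3 nt from an exon. Exon distances were measured from the centre of a cluster, so a cluster this near can reach into the exon. Among other intronic clusters, 22.1% and 15.4% lay within 300 nt of an exon in A1dm, 11.3% and 13.7% in A1-HMW, and 12.05% and 11.7% in A1.

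Purine stretches differed in frequency between the 3 groups of deep clusters. A stretch of at least 12 purines was present in 40% and 50% of the deep clusters for A1dm, in 78.6% and 80% for A1-HMW, and in 96.8% and 97.0% in the A1 libraries. The groups did not overlap. A1dm minus A1 was -51.9 points and A1-HMW minus A1 was -17.6 points, and A1dm minus A1-HMW was -34.3 points, each with the smallest possible exact permutation p of 0.333. In counts, 8 of 17 deep A1dm clusters, 31 of 39 deep A1-HMW clusters and 441 of 455 deep A1 clusters held such a stretch. On these pooled counts, Newcombe's interval ran from -70.8 to -27.8 points for A1dm minus A1 and from -32.5 to -7.50 for A1-HMW minus A1. For A1dm minus A1-HMW it ran from -55.5 to -5.81 points. These intervals count clusters, some of which mark the same region in both libraries of a group. They do not measure the spread between libraries, for which the permutation p of 0.333 stands.

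**Figure D5:**
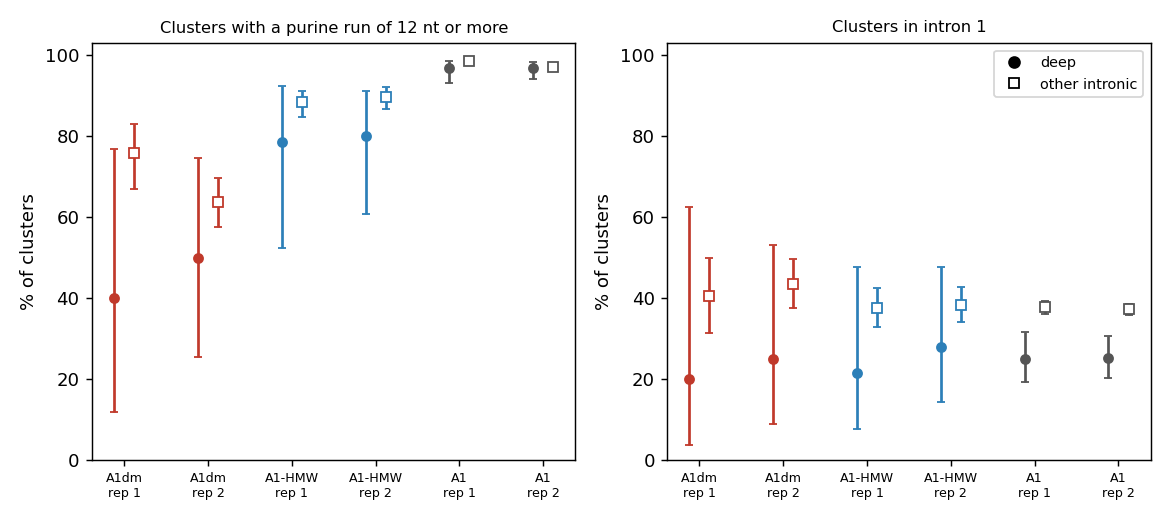
Percent of clusters with a purine run of at least 12 nt (left) and percent in intron 1 (right) for deep clusters (filled circles) and other intronic clusters (open squares) of each library, with 95% Wilson intervals. Deep clusters have the lower value in 6 of 6 libraries in both panels, and the purine share of deep clusters is 40% and 50% in A1dm and 96.8% and 97.0% in A1.

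The same order of the groups was seen outside the deep class, where 76.0% and 63.8% of the other intronic clusters held a stretch in A1dm, 88.4% and 89.8% in A1-HMW, and 98.6% and 97.2% in A1. The deep value was lower than the other intronic value in 6 of 6 libraries. Deep minus other was -36.0 and -13.8 points in A1dm, -9.82 and -9.83 points in A1-HMW, and -1.78 and -0.205 points in A1, with a mean of -11.9 points ± 12.9 (SD, n = 6, exact sign-flip permutation p = 0.0313, adjusted p = 0.125). Newcombe's interval of deep minus other, on pooled counts, ran from -41.8 to 2.19 points for A1dm, from -24.9 to 0.28 for A1-HMW and from -2.91 to 0.42 for A1, so the interval of each group included 0.

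The purine content of all bases followed the same order, with 71.7% and 75.1% A or G in deep A1dm clusters, 84.7% and 84.9% in deep A1-HMW clusters, and 90.5% and 90.9% in deep A1 clusters. The hexamer GAGGAA, searched on the RNA strand, was present in 0% and 8.33% of the deep clusters in A1dm, 35.7% and 16% in A1-HMW, and 34.0% and 33.0% in A1. In other intronic clusters it was present in 24.04% and 24.8% in A1dm, 28.2% and 36.5% in A1-HMW, and 33.9% and 33.0% in A1. Deep values were lower in 4 libraries and higher in 2 (exact sign-flip permutation p = 0.219, adjusted p = 0.438). The trinucleotide TAG, which as UAG is part of the motif that the RNA recognition motifs of hnRNP A1 are known to bind, was present in 20% and 25% of the deep clusters in A1dm, 7.14% and 8% in A1-HMW, and 5.85% and 7.12% in A1. Other intronic clusters held it in 10.6% and 16.7% in A1dm, 7.12% and 7.88% in A1-HMW, and 8.41% and 9.70% in A1 (deep minus other, exact sign-flip permutation p = 0.406). Deep clusters had the usual length, with medians of 21 to 25 nt in the 6 libraries.

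In A1, deep clusters recurred between replicates less often than other intronic clusters. Of the deep clusters in A1dm, 1 of 5 in replicate 1 was found in replicate 2, and 1 of 12 the other way. For all clusters of these libraries the shares were 14.7% and 5.7%. In A1-HMW, 2 of 14 (14.3%, Wilson interval 4.01 to 39.9) and 2 of 25 (8%, 2.22 to 24.97) deep clusters recurred, against 20.7% and 16.1% of all clusters. In A1, 90 of 188 (47.9%, 40.8 to 55.0) and 90 of 267 (33.7%, 28.3 to 39.6) deep clusters recurred, against 57.4% and 41.1% of all clusters. The recurrence of other intronic clusters in A1 was 58.6% and 42.6%. By distance, it was 61.1% and 45.6% for A1 clusters within 5 kb of a TSS, and 57.0% and 40.6% for those at 5 to 50 kb. Deep minus other was -10.8 points in replicate 1 (Newcombe's interval -18.0 to -3.46) and -8.86 points in replicate 2 (-14.4 to -2.82). The same 90 regions lie behind both A1 values, so the 2 are not independent.

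Deep clusters of A1dm and A1-HMW were set against the clusters of both A1 libraries. An A1 cluster overlapped 3 of 5 and 6 of 12 deep clusters of the A1dm libraries, against 58.6% and 45.1% of all their clusters. For A1-HMW it overlapped 9 of 14 (64.3%, Wilson interval 38.8 to 83.7) and 17 of 25 (68%, 48.4 to 82.8) deep clusters, against 70.5% and 70.2% of all clusters. With 1 A1 library alone, the deep shares were 60% in A1dm replicate 1 and 33.3% or 41.7% in A1dm replicate 2, and 42.9% in A1-HMW replicate 1 and 60% or 48% in A1-HMW replicate 2. Seen from A1, an A1dm cluster overlapped 4.26% and 2.62% of the deep clusters of the A1 libraries, and an A1-HMW cluster 8.51% and 7.49%. Over all clusters of the A1 libraries these shares were 5.15% and 4.12% with A1dm, and 13.2% and 10.5% with A1-HMW. By regions, 9 of 16 deep A1dm regions and 24 of 37 deep A1-HMW regions held an A1 cluster.

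The overlap with A1 went along with the purine stretch. Overlapping clusters share bases, and 441 of 455 deep and 7740 of 7915 other intronic A1 clusters held a stretch of at least 12 purines. Clusters without one thus had few A1 clusters to overlap, so the counts below are a description and no conclusion is drawn from them. Of the deep A1dm clusters, 7 of 8 with a stretch of 12 purines overlapped an A1 cluster, and 2 of 9 without one did, namely the LRRC4C and SLC14A2 sites printed above. Of the deep A1-HMW clusters, 26 of 31 with a stretch did, and 0 of 8 without one, which by Wilson's method allows a share of up to 32.4%. The other intronic clusters had the same pattern, with overlap for 183 of 236 with and 12 of 114 without a stretch in A1dm, and for 602 of 768 with and 16 of 93 without in A1-HMW. The 8 purine-poor deep A1-HMW clusters include the FGF13 site that A1dm shared, and others in PLXNA2, a semaphorin receptor gene, in PPP3CA, the gene of a calcineurin catalytic subunit, in RANBP17 and in ARFGEF3. Among the deep A1 clusters themselves, 175 of 441 with a stretch and 5 of 14 without recurred in the other A1 replicate.

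Lists of long genes were compared by count, and since they were chosen for length their shares stand beside those of the length classes above. Of 34 genes at common fragile sites, median length 944 kb, a deep cluster was found in 1 for A1dm, 1 for A1-HMW and 13 for A1 (38.2%), 8 of these in both A1 libraries. AUTS2 and FHIT led it, followed by LRP1B, a lipoprotein receptor-related gene, with 4 clusters and PARD3B, a cell polarity gene, with 3. Of 40 neuronal adhesion and synapse genes, median 979 kb, 3 held a deep A1dm cluster, 3 an A1-HMW cluster and 8 an A1 cluster (20%), among them GPC5 with 10 clusters, GPC6 with 8, EPHA6 with 6 and NCAM1 with 4 over all libraries.

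The other lists held fewer deep clusters. No list holds every gene of its kind, so each count covers only the genes listed. Of the 48 transcription factor and chromatin genes listed, median 292 kb, 0 held one for A1dm, 3 for A1-HMW and 7 for A1 (14.6%). Within the list, the calmodulin-binding factor gene CAMTA1 had 6 clusters and the homeobox gene MEIS2 had 3. MECOM, ASH1L, AEBP2 and HDAC8, named above, were not on it, and MECOM and ASH1L each held 1 A1dm cluster. Of the 51 kinase, phosphatase and phosphodiesterase genes listed, median 320 kb, the counts were 0 for A1dm, 1 for A1-HMW and 7 for A1 (13.7%). Within the list PRKG1, a cGMP-dependent kinase gene, held 3 clusters. The calcineurin gene PPP3CA was not listed and held 4, of which 1 was from A1-HMW. Of 38 long RNA binding protein genes, median 176 kb, 0 held one for A1dm, 0 for A1-HMW and 1 for A1, the ataxin gene ATXN1 with 4 clusters. Of the 36 DNA repair and checkpoint genes over 50 kb listed, median 103.3 kb, 0 held a deep cluster in any library. The repair gene NSMCE2, which was not listed, held 3 deep clusters. Counts are by annotated host, so the 4 clusters within FANCB, annotated to GLRA2, are not included.

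By chromosome, deep clusters were most numerous on chromosome 3 (76), followed by 7 (46), 2 (43), X (40) and 13 (39). As a share of the intronic clusters of a chromosome they made up 14.6% on chromosome 13 and 13.5% on X, against 1.15% (3 of 260) on chromosome 19. GPC5, GPC6 and HS6ST3, which encodes a heparan sulfate sulfotransferase, held 23 of the 39 on chromosome 13.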

How the data were processed

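PAR-CLIP cluster lists of 6 libraries from HEK293T cells were analysed, 2 for each of A1dm, A1-HMW and A1. According to the paper's methods, the authors trimmed the reads, removed ribosomal RNA and mapped the rest, looked for T-to-C changes with wavClusteR and called binding sites with PARalyzer. The file headers name wavClusteR output as what HOMER annotated, against hg19 and an Ensembl gene set. The submitters' processing notes name Bowtie and hg19. The deposited score is 0 in every line, and the deposited positions and distances to the TSS are in nucleotides. The deposited gene names are those of the nearest TSS and were not used as hosts.

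The listed start lay 1 nt above that of the cluster identifier in 16269 of 16269 lines, and the identifier was used. Host genes, exons and starts came from GENCODE 44 lifted to GRCh37, without gene IDs that span over 3000000 nt, and sequences from the GRCh37 genome. Sites were called the same at an overlap of 1 nt on the same strand. Shares have 95% Wilson intervals and differences of pooled shares Newcombe intervals. Groups were compared by exact two-sided permutation over libraries, and deep with other intronic clusters by exact two-sided sign flips over the 6 libraries. Replicates were independent experiments in the paper's words, but the labels do not name separate cultures, so p-values measure the spread between these libraries.

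The members, gene lists and tests were chosen with earlier results of these data known, and the sign-flip comparisons and the search for copies in the genome were added after the lists had been seen. The genes named were up to 10 with most deep clusters per group, genes in 5 or more libraries, regions in 4 or more libraries or in both A1dm or both A1-HMW libraries, up to 4 members per gene list, and the 2 clusters on either side of the threshold. Other names were chosen after their values had been seen. Some sites and sequences are not reported here. Alternatives covered the distance threshold, denominator, strand, own-gene distance, merging, overlap, listed start, purine run, transcript, starts and each library left out. The overlap, merging and interval functions were tested on simulated data. Python 3.11.15, pandas 2.3.3, numpy 2.4.6, scipy 1.17.1, statsmodels 0.14.6, samtools 1.23.1 and matplotlib 3.10.9 were used.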

Additional observations from a re-analysis of the deposited data

How the results depend on the processing

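The 3 differences in deep share were recomputed under 33 alternatives. A1dm minus A1 and A1-HMW minus A1 stayed below 0 in all of theirs. With 1 library left out they ran from -0.88 to -0.73 points and from -1.86 to -0.49 points. At 100000 nt A1dm minus A1 was only -0.13 points, with 1.83% and 0.388% in A1dm and 1.11% and 1.38% in A1. A1dm minus A1-HMW, 0.37 points, turned to -0.91 points at a threshold of 25000 nt and to -0.40 points with all clusters as the denominator, and ran from -0.31 to 1.06 points with 1 library left out, the negative value being that without A1-HMW replicate 1. With distance measured to the start of the cluster's own gene, deep shares were 38.8% to 40.6% in A1dm, 37.7% to 39.5% in A1-HMW and 46.2% and 46.3% in A1. The replicate block, taken over libraries of the same number, gave differences of -0.80, -1.18 and 0.37 points with exact sign-flip p of 0.5, 0.5 and 1, where 0.5 is the smallest possible. It gave -51.9, -17.6 and -34.3 points for the purine stretch, an alternative added after the data had been seen. The labels do not say that a number marks a shared experiment, and deviations of same-numbered libraries correlated at -0.04, 0.01 and 0.17.

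At 100000 nt, recurrence was 0% in each A1dm and A1-HMW library and 23.9% in A1 replicate 2, and the overlap with A1 was 100% in A1dm replicate 1 and 0% in A1dm replicate 2, with few clusters left. Without 1 A1 library, the overlap with A1 was 60% in A1dm replicate 1, as with both, ran from 33.3% to 41.7% in A1dm replicate 2, against 50%, was 42.9% in A1-HMW replicate 1, against 64.3%, and ran from 48% to 60% in A1-HMW replicate 2, against 68%. By the longest transcript, 8.33% of deep A1dm clusters lay in intron 1, against 22.5%. With starts of protein-coding genes alone, deep density in A1 was 29.3% of that at 5 to 50 kb, against 38.4%. The causes were not tested. All purine differences kept their direction. The lists give no read numbers, so depth was not compared, and 17 A1dm and 39 A1-HMW clusters cannot show small differences.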
